A study of Allium sativum with 84 samples.

Results

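Enlarging bulbs of garlic accessions fell along a second axis of expression that crossed the main split of the collection, and the 46 of 84 accessions at its opposite ends are described here. The axis is the second principal component (PC2) of log2(FPKM + 1), where FPKM is the fragments of a gene per kilobase of its length, scaled to the reads of the library. The members were chosen by this score, with 21 accessions above 40 at the positive end and 25 below -40 at the negative end, and the other 38 lay between. The Australia accession was used to set the positive direction. Since the same expression values chose the members, differences in level between the ends are given as descriptions and carry no test.

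Each accession was represented by 1 library, made from developing bulbs sampled in spring on a single farm in Shandong. The study describes these bulbs as enlarging but gives no stage for single accessions. Stage at harvest and accession therefore cannot be told apart. The label that told accessions apart was the country or collection site. No treatment, transgene or mutant was involved, and every member was a field-grown accession of *Allium sativum*, a crop that is sterile and propagated by its cloves. The labels gave neither the genetic group nor the bulb traits of an accession. The table pairs gene IDs with no names, so tissue markers were not analysed here and only the genes that the study names carry a role below. In whole bulbs, fewer cells of a type and less RNA per cell cannot be told apart.

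Garlic forms its bulb when the buds that become cloves swell, and day length is a main cue for this step in garlic and in the related onion. In this pathway the circadian clock and light set the level of FT-like proteins, mobile signals that promote flowering in many plants and bulb or tuber formation in onion and potato. Gibberellins, growth hormones whose signalling DELLA proteins restrain, also influence tuber and bulb growth. The genes of these pathways that the study names were followed along the axis, beside the genes that separated its ends most.

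PC2 held 13.4% of the variance, against 27.2% for PC1 and 9.58% for PC3, over the 36007 of 57561 genes that reached 1 FPKM in 4 or more accessions. Scores ran from -121 in Henan replicate 4 to 135.6 in Jilin replicate 1. The members nearest the limits scored 41.2 and -40.1, and the accessions just outside them 37.2 and -38.95. Both ends occurred on both sides of PC1, with 11 positive and 10 negative members below 0 and with 10 and 15 above 0.

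**Figure D1:**
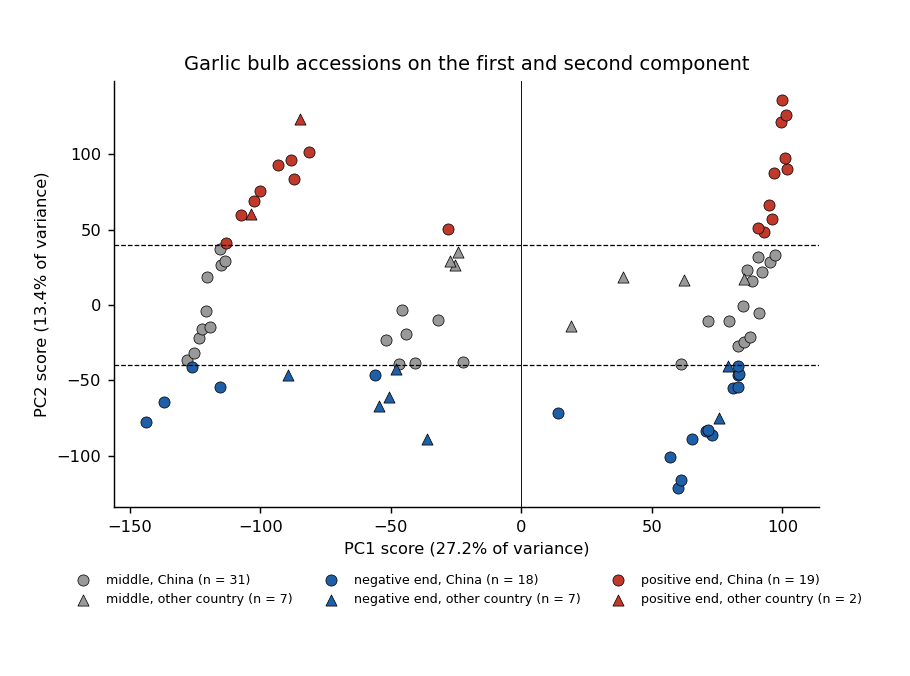
Scores of 84 garlic accessions on PC1 (horizontal) and PC2 (vertical), with circles for accessions from China, triangles for other countries and dashed lines at the limits of 40 and -40. The 21 red points and the 25 blue points of the ends occur both left and right of 0 on PC1.

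The ends did not separate the collection sites. Of the 24 site labels with a member, counting China without a province as a label, 7 had at least 2 members at the ends. Only such sites could occur at both ends, and 5 did. Shandong had 4 positive and 6 negative members, Shanxi 2 and 4, Henan 2 and 1, Xinjiang 1 and 2, and Guizhou 1 and 2. Accessions from outside China made up 2 of the 21 positive members (Australia and Japan) and 7 of the 25 negative ones (Canada replicates 3 and 4, both Greece accessions, Russia, Thailand and Egypt, spelled Eygpt in its label). These shares, 9.52% and 28%, did not differ beyond sampling (Fisher's exact test, two-sided, p = 0.151, adjusted p = 0.452 over 3 comparisons).

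Depth and the order of the deposited columns were the other measures that the scores had not used. Relative depth, read from the steps that single reads leave in low FPKM values, was 0.593 ± 0.112 (SD, n = 21) at the positive end and 0.558 ± 0.129 (SD, n = 25) at the negative end (permutation test with 100000 resamples, two-sided, p = 0.346, adjusted p = 0.519). The difference turned sign on the side of PC1 below 0, where the means were 0.561 and 0.563 (permutation p = 0.976). Column position averaged 43.4 ± 20.5 and 45.0 ± 23.2 (SD, permutation p = 0.809, adjusted p = 0.809). All 84 libraries spanned a 2.29-fold range of depth and had 31485 to 36548 genes above 0. Members at 1 end could be close to each other, with r above 0.97 across genes on the log2 scale in 31 of 1035 member pairs, all within an end, and at most 0.942 across the ends. Members were therefore not independent draws, and 25 of the 46 had such a partner. Of the 7 accessions set apart beyond 100 on PC3, 3 were at the negative end (Eygpt and Greece replicates 1 and 2) and 0 at the positive end. Over 2142 genes present in some accessions and listed at 0 in others, the negative member Canada replicate 4 had r = 0.856 with an average of 2 others, Canada replicate 3 and Shandong replicate 4, and at most 0.703 with any single accession. No value of another pair stands beside it, and an average of 2 libraries can correlate more by itself. Whether the Canada replicate 4 library holds more than 1 accession was not tested. The deposited table was also split by column position, into the first 23 columns (4 positive and 5 negative members) and the other 61 (17 and 20). Differences within each are given below only for the photoperiod and clock genes, Asa6G01110.1 and Asa2G00253.1. On the fourth component (PC4), accessions of the first 23 columns scored from -144.7 (Canada replicate 5) to -2.58 (Hebei replicate 1), except Xinjiang replicate 3 at 2.05. The other 61 scored -12.4 (Hubei) or higher, most of them above 0. The test of mean position does not address such a block, and its cause was not tested.

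The second axis depended on how much weight near-zero values received. With a pseudocount of 0.1 in place of 1, the component that followed it was PC3 (r = 0.922 in size over 84 accessions, with the scores sharing the same libraries), and PC2 followed what had been PC3 (0.923). Taking as many accessions from each end of that second component kept 13 of the 21 positive and 13 of the 25 negative members. The other scalings tried kept 20 positive and 21 to 23 negative members.

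Across genes, the ends overlapped widely, and few genes separated every positive from every negative member. A gene was counted as differing where the mean of log2(FPKM + 1) differed by at least 1 and the values of the ends did not overlap. By this rule 18 genes were higher at the positive end (0.05% of the genes compared) and 78 lower (0.217%), with median differences of 2.35 and -1.81. The split depended on scaling, with 39 higher and 45 lower after median-ratio scaling, and 51 higher and 44 lower after quantile normalization. Without Greece replicate 2, the count of higher genes was 34, without Gansu replicate 3 it was 28, and without Russia or without Xinjiang replicate 4 it was 27. Without Canada replicate 4 the counts were 20 and 81, and without the 3 members beyond 100 on PC3 the higher genes numbered 43. By the difference of 1 alone, 1811 genes were higher (5.03%) and 3070 lower (8.53%), beside a median of -0.11 over all genes. That median moved to -0.016 after median-ratio scaling and to 0.0046 after quantile normalization, and the split then became 2162 against 2523 and 2241 against 2427. Because the members were chosen on these values, the percentages describe the axis and support nothing more.

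The middle accessions lay between the ends in the genes that separated them completely. In all 18 higher and all 78 lower genes, the median of the 38 middle accessions lay between the medians of the ends. The choice of these genes and of accessions by score largely entails this order. Spearman's rank correlation with the score over 84 accessions was 0.746 to 0.901 in size for the higher genes and 0.701 to 0.919 for the lower ones, from the same libraries that made the score. The examples named next were chosen after their values were seen, and the files give none of them a function. Asa8G00462.1 had the largest difference among the higher genes. It ran from 38.6 to 270.1 FPKM with a median of 102.0 at the positive end, and from 0 to 35.4 FPKM with a median of 2.18 at the negative end. Its middle accessions had a median of 37.9 FPKM, and the difference was 4.79 ± 0.34 (SE) on the log2(FPKM + 1) scale. Asa2G01908.1 ran from 7.04 to 23.3 FPKM (median 14.7) at the positive end and from 0.0903 to 3.55 FPKM (median 0.914) at the negative end. Every positive member thus held at least 7.04 FPKM of this gene, and the median of the middle accessions was 4.79 FPKM.

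Among the genes lower at the positive end, Asa7G06658.1 had the largest difference that separated all members, -4.07 ± 0.33 (SE, log2 scale). It ran from 0 to 19.8 FPKM (median 2.49) at the positive end and from 19.9 to 179.5 FPKM (median 63.4) at the negative end. The ends met at about 20 FPKM without crossing. Asa1G03591.1 ran from 0.141 to 19.3 FPKM (median 4.32) at the positive end and from 39.02 to 205.5 FPKM (median 63.99) at the negative end, and the middle accessions had a median of 24.5 FPKM. Its neighbour Asa1G03592.1 was also in the group of 78, with a median of 0.851 FPKM at the positive end and 19.6 FPKM at the negative end.

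Part of the difference between the ends recurred on both sides of PC1. Of the 36007 genes compared, 2392 were higher and 3145 lower by at least 1 below 0, and 2121 and 3719 above 0. Of these, 3104 differed by at least 1 on each side, with 1123 higher on both, 1918 lower on both and 63 going opposite ways. Within the side below 0, 102 genes were higher without overlap (0.283%) and 305 lower (0.847%), and within the side above 0, 729 were higher (2.02%) and 1011 lower (2.81%). Of these, 59 were higher and 152 lower on both sides. With fewer members per group, values overlap less often, so these counts are not comparable with those of the whole ends. PC2 was computed over both sides together, and a recurrence of its genes is part of its construction.

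**Figure D2:**
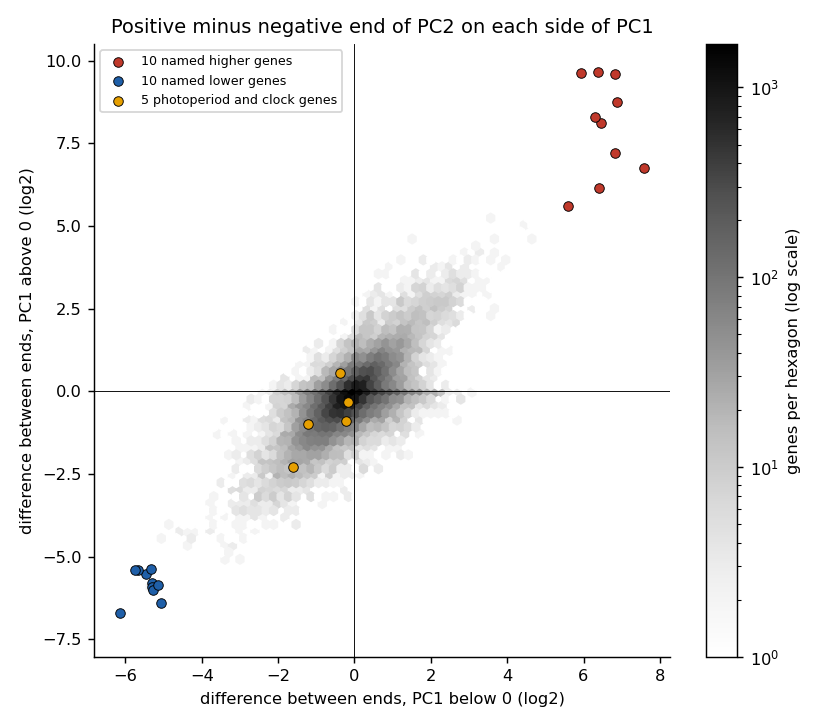
Difference between the positive and negative end of PC2, as mean log2(FPKM + 1), for 36007 genes on the side of PC1 below 0 (horizontal) and above 0 (vertical), with grey hexagons shaded by the number of genes on a log scale. The 10 named higher genes lie beyond 5.6 and the 10 named lower genes beyond -5.08 on both sides, and the 5 photoperiod and clock genes lie closer to 0, down to -1.61 and -2.30 for Asa2G04763.1.

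Genes that differed occurred on every chromosome. Between 4.45% (chromosome 7) and 5.68% (chromosome 2) of the genes of a chromosome were higher by at least 1, and between 7.32% (chromosome 1) and 8.92% (chromosome 2) were lower, with the digit after the prefix of each ID read as the chromosome and 0 as unplaced. Of the genes higher by at least 1, 16.6% were followed in the table by another such gene, and of the lower genes 18.9%, above the 5.03% and 8.53% of all genes. By level, genes with a median of at least 1000 FPKM over all accessions had 15 of 76 lower and 2 of 76 higher. In a positive member the 1811 higher genes held 9.31% to 32.6% of the library's FPKM (median 19.3%), and in a negative member 1.52% to 6.37% (median 2.77%). The 3070 lower genes held 3.47% to 9.24% (median 6.66%) and 14.8% to 27.4% (median 21.7%). Neither pair of ranges overlapped between the ends, as the choice of genes and members entails.

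Part of this share came from a small group of very abundant transcripts. The 10 genes with the largest difference that recurred on both sides of PC1 comprised 5 from a short stretch of chromosome 7, 3 unplaced genes and 2 others, and the files give them no function. Together they held a median of 8.19% of the library's FPKM at the positive end, 0.860% in the middle and 0.0127% at the negative end. The range was 0.0279% to 24.8% among positive members and 0.00122% to 0.758% among negative ones, and the ends overlapped, with 3 positive members below the highest negative one and 9 negative members above the lowest positive one. Of the 21 positive members, 16 were above 5%, while Shanxi replicate 4, Xinjiang replicate 4 and Hunan stayed at 0.0279%, 0.140% and 0.418%. High scores thus also occurred where these transcripts took less than 1% of the FPKM. Conversely, 11 of the 38 middle accessions were above 5%, with Canada replicate 2 at 35.7%.

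The most abundant of the 10 was Asa7G03244.1, with 122.6 to 53134 FPKM at the positive end (median 26730), 2.90 to 147425 FPKM in the middle (median 1302) and 2.99 to 2576 FPKM at the negative end (median 34.3). Its ends overlapped, and 18 of 21 positive members lay above the highest negative one. The difference was 8.24 ± 0.70 (SE, log2 scale), with 6.37 below 0 and 9.66 above 0 on PC1. Unplaced Asa0G03404.1 had similar levels, from 119.9 to 56645 FPKM (median 23725) at the positive end and from 4.61 to 406 FPKM (median 21.98) at the negative end, and 19 of 21 positive members lay above every negative one. Asa7G03238.1, with medians of 9095 and 17.2 FPKM, and Asa7G03267.1, with 9173 and 12.4 FPKM, followed the same order. The share that these genes take out of a library lowers the FPKM of all others, and its part in the shift of the median gene was not tested.

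Several of the 10 were also graded by side of PC1 within the positive end. Unplaced Asa0G04006.1 had a median of 20347 FPKM among positive members below 0 on PC1 and of 1839 FPKM among those above 0. Asa7G03275.1 likewise had medians of 4947 and 254.2 FPKM. Asa0G03404.1 went the other way, with 11293 and 40790 FPKM. The 10 genes nevertheless varied together over the 84 accessions, with Spearman's rank correlation of 0.802 to 0.9796 between any 2 of them (median 0.891, 45 pairs, same libraries), and a median of 0.714 within the 21 positive members. The other 4 higher genes were Asa0G02391.1, Asa7G03273.1, Asa2G06168.1 and Asa6G00503.1, with medians of 1232, 1190, 339 and 102 FPKM at the positive end and of 3.32, 0.669, 0.714 and 0.118 FPKM at the negative end.

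The stretch of chromosome 7 did not move as a block. From Asa7G03238.1 to Asa7G03275.1 the table lists 38 genes, of which 29 passed the filter. Of these, 8 were higher at the positive end by at least 1 (6 of them by at least 5), 4 were lower by at least 1, and 17 stayed within 1. Asa7G03245.1, next to Asa7G03244.1, had medians of 263 and 225 FPKM at the positive and negative end, a difference of 0.13 ± 0.32 (SE). Asa7G03247.1 and Asa7G03248.1, close by, had medians of 2.97 and 4.04 FPKM at the positive end and of 76.6 and 138.0 FPKM at the negative end. Genes of the same stretch thus differed in opposite directions.

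**Figure D3:**
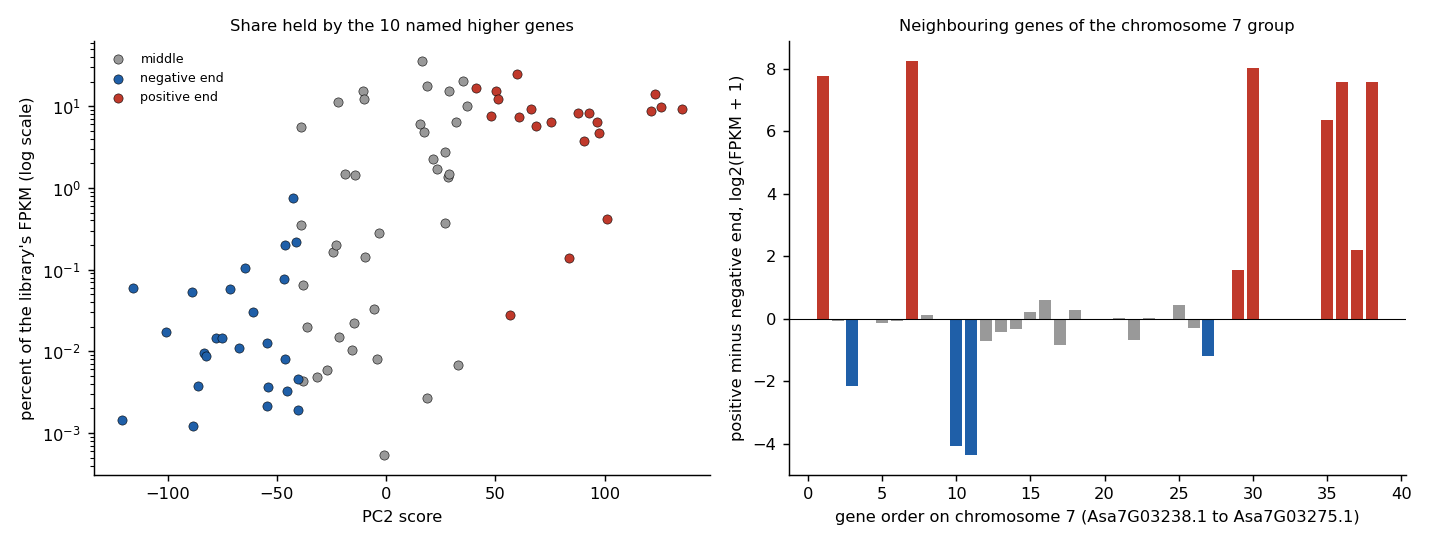
Left, percent of each library's FPKM held by the 10 named higher genes (log axis) against the PC2 score of 84 accessions, where 16 of 21 positive members lie above 5% and 3 lie below 1%. Right, difference between the ends in log2(FPKM + 1) for the 29 genes that passed the filter in a stretch of 38 on chromosome 7, in their order, with 8 at or above 1 (red) and 4 at or below -1 (blue).

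The 10 genes with the largest recurring difference in the other direction lay on chromosomes 1, 2, 4, 5, 6 and 7 and were less abundant. Together they held a median of 0.264% of a library's FPKM at the negative end, 0.0256% in the middle and 0.0024% at the positive end. Asa4G06008.1 was listed at 0 in 8 of 21 positive members, with a median of 0.224 and a highest value of 38.97 FPKM, and ran from 0.290 to 2459 FPKM (median 335) at the negative end. All 21 positive members lay below the median of the negative end, and 21 of 25 negative members lay above every positive one (difference -6.44 ± 0.70 SE, log2 scale). Asa6G04395.1 ran from 0 to 62.3 FPKM (median 4.75) at the positive end and from 23.1 to 1160 FPKM (median 326) at the negative end. It separated the ends completely on the side of PC1 below 0, where the positive members reached 62.3 FPKM and the negative ones started at 80.1 FPKM. Asa2G05973.1 had the highest levels, with medians of 2.86 and 651 FPKM and a highest value of 17242 FPKM. The other 7, Asa7G01178.1, Asa1G02726.1, Asa6G00062.1, Asa7G03806.1, Asa6G05980.1, Asa5G05588.1 and Asa5G04464.1, had medians of 0.130 to 2.71 FPKM at the positive end and of 81.3 to 278 FPKM at the negative end. None of the 20 genes separated the 2 whole ends without overlap.

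The photoperiod and clock genes followed the axis unequally. Of the 5 that the study names, 1 was lower at the positive end by at least 1, 0 were higher, and 4 had a negative difference. Over all genes compared, 8.53% were lower and 5.03% higher by the same measure, and 59.3% had a negative difference. The median difference of the 5 genes was -0.70, beside -0.11 over all genes. All 5 overlapped between the ends, and on the side of PC1 below 0 the count lower by at least 1 was 2, where 8.73% of all genes were. On the side above 0 the count was 1, where 3719 of the 36007 genes were.

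The gene that followed the axis most closely was the TGA4-like Asa2G04763.1, which encodes a transcription factor of the bZIP class. It ran from 1.22 to 38.7 FPKM (median 6.64) at the positive end, from 0.600 to 39.2 FPKM (median 19.1) in the middle and from 9.41 to 62.7 FPKM (median 30.6) at the negative end. The mean was 9.64 ± 9.13 FPKM (SD, n = 21) against 32.1 ± 14.02 (SD, n = 25). Of the 21 positive members, 20 lay below the median of the negative end and 14 below its lowest member. The exception was Shandong replicate 15, the positive member nearest to the limit, at 38.7 FPKM, and the lowest was Jilin replicate 1, the member with the highest score. The difference was -1.95 ± 0.29 (SE, log2 scale), larger in size than that of 96.5% of all genes compared, and it was -1.61 below 0 and -2.30 above 0 on PC1. Spearman's rank correlation with the score was -0.72 over 84 accessions and -0.34 over the 38 middle ones. In the first 23 columns of the table the difference was -0.78, and in the other 61 columns it was -2.23.

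The second TGA4-like gene, Asa6G01159.1, did not share this order. It was weak, with 0 to 3.65 FPKM (median 0.971) at the positive end and 0 to 6.20 FPKM (median 0.527) at the negative end. The median library held 14 reads of it, as recovered from the steps of its values. The difference of 0.10 ± 0.19 (SE) was -0.39 below 0 and 0.54 above 0 on PC1, and -1.53 in the first 23 columns and 0.50 in the others. Its rank correlation with the score was 0.08.

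The FT-like Asa6G06199.1, an ortholog of an onion FT gene, came next in size. The study proposes it as a potential repressor of clove enlargement, because its level correlated negatively with clove weight. Its overexpression caused early flowering in Arabidopsis. The gene ran from 0 to 11.9 FPKM (median 2.93) at the positive end and from 1.75 to 23.99 FPKM (median 5.71) at the negative end. In the middle it ran from 0.606 to 24.9 FPKM (median 4.07). It was listed at 0 in Jilin replicate 1, 7 positive members lay below the lowest negative one, and 17 of 21 lay below the median of the negative end. The difference was -0.99 ± 0.26 (SE, log2 scale), with -1.22 below 0 and -0.99 above 0 on PC1. On each side of PC1 the same order held, with medians of 3.94 and 10.3 FPKM below 0 and of 1.98 and 4.96 FPKM above 0. The level of this gene thus also differed between the sides of PC1, and its rank correlation with PC2 was -0.36 over all accessions, -0.41 below 0 and -0.46 above 0. The difference was -1.69 in the first 23 columns and -0.83 in the others, and the median library held 32 reads of the gene.

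The ELF4-like Asa2G00681.1 differed mainly on the side of PC1 above 0. In Arabidopsis, ELF4 belongs to the evening complex of the circadian clock. The gene ran from 9.79 to 49.4 FPKM (median 24.8) at the positive end, from 10.3 to 223 FPKM (median 36.2) in the middle and from 12.1 to 101.6 FPKM (median 43.0) at the negative end. The difference of -0.70 ± 0.23 (SE) was -0.23 ± 0.33 below 0 and -0.91 ± 0.23 above 0 on PC1. Above 0, all 10 positive members lay below the negative median of 53.1 FPKM, and 10 of 15 negative members lay above every positive one. Below 0, the medians were 17.0 and 21.7 FPKM and the values mixed. The difference between the sides was not tested. In the first 23 columns the difference was 0.27, and in the others -0.93. The median level in the middle accessions above 0, 56.6 FPKM, was about that of the negative end, so the level did not fall evenly along the axis, and the rank correlation over the middle was -0.05.

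The CDF2 homolog Asa8G01471.1 hardly differed between the ends. CDF proteins are DOF transcription factors that, in Arabidopsis, hold back flowering by repressing the gene that activates FT. The homolog ran from 6.73 to 31.6 FPKM (median 17.1) at the positive end and from 10.3 to 49.0 FPKM (median 18.2) at the negative end. The difference was -0.23 ± 0.18 (SE), with a rank correlation of -0.09. In the middle it ran from 0.385 to 39.2 FPKM (median 16.3). Gansu replicate 1, Canada replicate 5, Xizang, Shandong replicate 8 and Qinghai, all middle accessions, had less than 1 FPKM. These accessions are all among the first 23 columns, and the cause was not tested. After quantile normalization the difference was -0.0067. The difference was -0.76 in the first 23 columns and -0.10 in the others.

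**Figure D4:**
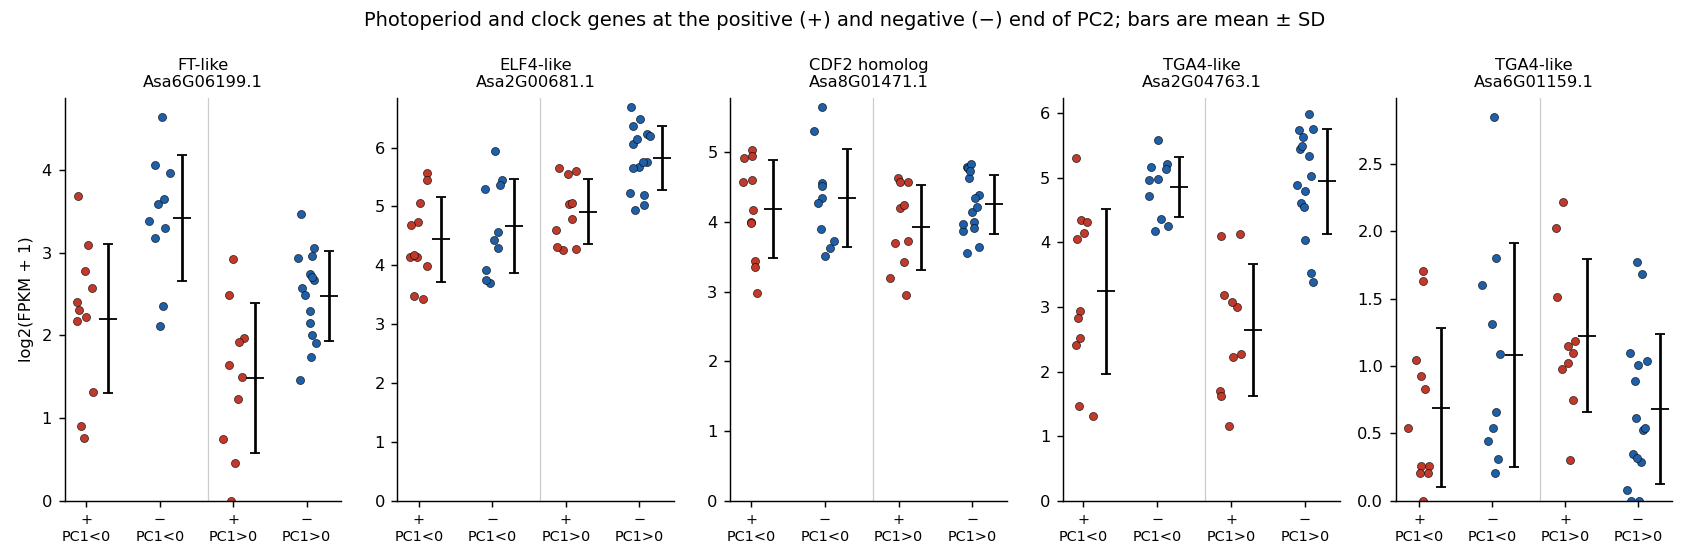
Level in log2(FPKM + 1) of the 5 photoperiod and clock genes in members of the positive (+, red) and negative (−, blue) end of PC2 on each side of PC1, with 1 point per accession and mean ± SD beside it. The TGA4-like Asa2G04763.1 lies lower at the positive end on both sides (differences -1.61 and -2.30), while Asa6G01159.1 turns from -0.39 to 0.54.

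Among the 9 other IDs that the study names, of which 8 passed the filter, 2 were lower at the positive end by at least 1 and 0 were higher. The difference was negative for 7 of the 8, with a median of -0.71. Over all genes compared the shares were 8.53% lower, 5.03% higher and 59.3% negative, with a median of -0.11. The BEL5 ortholog Asa6G01110.1 followed the axis more closely than any photoperiod gene. In potato, BEL5 is a homeodomain transcription factor whose mobile transcript promotes tuber formation. It ran from 18.3 to 115.9 FPKM (median 55.0) at the positive end, from 28.2 to 223 FPKM (median 106.5) in the middle and from 110.3 to 298 FPKM (median 145) at the negative end. The ends crossed only between Shandong replicate 15 at 115.9 FPKM and Shanxi replicate 2 at 110.3 FPKM, so that 20 of the 21 positive members lay below the lowest negative member and 24 of the 25 negative members lay above the highest positive one. Within each side of PC1 they did not overlap, with 19.97 to 115.9 FPKM against 125.9 to 298 FPKM below 0 and 18.3 to 79.5 FPKM against 110.3 to 191.5 FPKM above 0. Of all genes compared, 0.847% were lower without overlap below 0 and 2.81% above 0, and 152 genes were so on both sides. The BEL5 ortholog was itself among the genes that made the score. The difference was -1.62 ± 0.17 (SE, log2 scale), with -1.35 and -1.95 on the sides of PC1 and -1.38 and -1.68 in the first 23 and the other columns. The rank correlation with the score was -0.84 over 84 accessions and -0.64 over the 38 middle ones, which also entered the score.

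**Figure D5:**
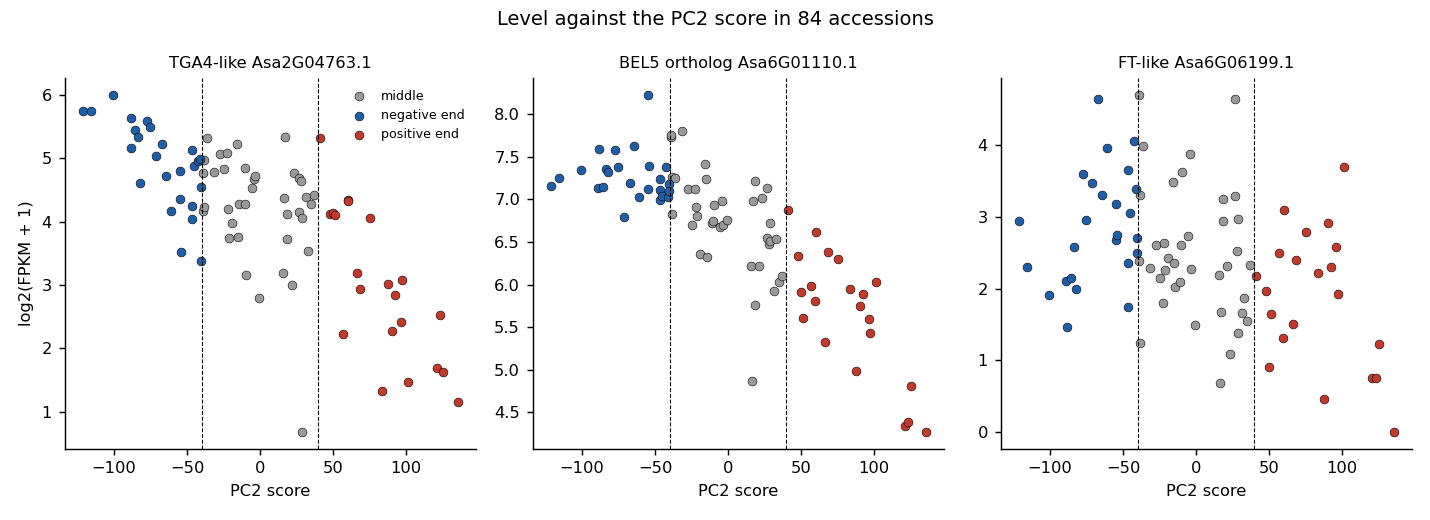
Level in log2(FPKM + 1) against the PC2 score in 84 accessions for the TGA4-like Asa2G04763.1, the BEL5 ortholog Asa6G01110.1 and the FT-like Asa6G06199.1, with dashed lines at 40 and -40. The points of the BEL5 ortholog and of Asa2G04763.1 lie lower at higher scores (rank correlation -0.84 and -0.72), and those of the FT-like gene scatter more (rank correlation -0.36).

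The other gibberellin genes differed by less than 1 between the whole ends, although the SLR1 homolog and Asa0G05638.1 passed 1 in size on the side of PC1 below 0. GA 20-oxidase is commonly known for gibberellin synthesis, while the study describes it as a catabolic enzyme of active gibberellins. The GA 20-oxidase gene Asa0G05638.1 was one of the abundant transcripts of the bulb. It ran from 563 to 2407 FPKM (median 863) at the positive end and from 754 to 3631 FPKM (median 1731) at the negative end, a difference of -0.82 ± 0.20 (SE), with -1.05 below 0 and -0.87 above 0 on PC1. On each side of PC1 every positive member lay below the negative median, with medians of 1222 and 3083 FPKM below 0 and of 701 and 1195 FPKM above 0. The SLR1 homolog Asa2G00237.1, which encodes a DELLA protein, ran from 0.466 to 2.79 FPKM (median 1.17) at the positive end and from 0.714 to 14.7 FPKM (median 2.25) at the negative end. The difference was -0.95 ± 0.20 (SE), with -1.33 below 0 and -0.74 above 0 on PC1, and 20 of 21 positive members lay below the negative median. The second GA 20-oxidase gene, Asa4G02474.1, did not pass the filter. It was listed at 0 in 7 positive and 7 negative members, reached 0.639 FPKM at most in either end, and the median library held 1 read of it, so that no difference was detectable at this depth.

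The genes of bud outgrowth and auxin showed no common order. The TB1-like Asa2G00245.1, related to a repressor of branching in maize, had medians of 1.25 and 1.33 FPKM at the positive and negative end, with a difference of -0.003 ± 0.22 (SE). The YUCCA-like Asa2G02184.1, of a family that makes auxin, had medians of 1.51 and 1.45 FPKM (0.074 ± 0.21). It differed instead between the sides of PC1, with 3.45 and 3.69 FPKM below 0 and 1.01 and 1.04 FPKM above 0. Neither gene therefore followed PC2. The TOPLESS-related Asa4G00255.1, of a family of transcriptional co-repressors, had medians of 4.46 and 9.06 FPKM (-0.60 ± 0.22). The AXR1-like Asa2G00503.1 had medians of 40.9 and 45.5 FPKM (-0.12 ± 0.10). The study prints a second ID for this gene, Asa2G00253.1, which ran from 0.376 to 144.7 FPKM (median 10.8) at the positive end and from 8.31 to 159 FPKM (median 30.3) at the negative end, a difference of -1.50 ± 0.41 (SE) that was -3.21 in the first 23 columns and -1.10 in the others.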

How the data were processed

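Bulb RNA of 84 accessions was sequenced, with 1 library per accession. The labels state 3 bulbs for an accession, and the study words pools and numbers of accessions differently. Reads were aligned by the authors (HISAT2 2.2.1.0, from the submitters' processing notes), who deposited FPKM per gene. The counting program and the scaling total are not given in the sources used here, and absolute depth was not used. Values were transformed to log2(FPKM + 1), which understates changes of low genes, and entered a centred, unscaled PCA.

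No test across genes was run, because members were selected on the same values. Depth and column position were tested by permutation and country by Fisher's exact test, with Benjamini-Hochberg adjustment over 3 tests. The p-values measure the spread among accessions and treat members as independent, which close members were not. Named genes were the 14 IDs of the study and, in each direction, the 10 with the largest smaller-of-2 differences within the sides of PC1 and a mean of at least 1 FPKM at the higher end; others are marked where they appear. Members and lists were chosen with earlier results of these data known. The scripts, tested on simulated data, used Python 3.11.15 with Matplotlib 3.10.9, SciPy 1.17.1, pandas 2.3.3 and NumPy 2.4.6. Alternatives were other scalings, pseudocount, filter, limits, subsets and leaving out each member.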

Additional observations from a re-analysis of the deposited data

Results flagged for a closer look

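Within the 2 groups of 10 members (positive end above 0 and negative end below 0 on PC1), 17 measures each were checked for a single accession far from the others by Dixon's ratio of gap to range, with a critical value of 0.466. Ratios of genes were taken on the log2(FPKM + 1) scale, while the levels printed beside them are in FPKM. Chance flags about 1 in 20 groups, and 5 of 34 were flagged, all at the high side. Guizhou replicate 3, a negative member, had a relative depth of 0.919, against 0.548 for the next library and a group median of 0.525 (ratio 0.886). The same accession had the highest level of the BEL5 ortholog Asa6G01110.1, 298 FPKM against 195.98 for the next (ratio 0.486). Hebei replicate 1 held 63.3 FPKM of Asa2G00253.1, against 22.05 (ratio 0.531). Greece replicate 2 had 5.33% of its FPKM in the genes higher at the positive end, against 3.57% for the next member (ratio 0.565). Among positive members, Hubei held 0.397 FPKM of Asa4G02474.1, against 0.224 for the next (ratio 0.467).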

How the results depend on the processing

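No paired analysis was possible because the labels number no replicates across sites. The genes separating the ends, 0.050% higher and 0.217% lower among those compared, moved most. Higher and lower shares were 0.108% and 0.125% after median-ratio scaling, 0.142% and 0.122% after quantile normalization, 0.00833% and 0.0417% at a score limit of 30, 0.378% and 0.728% at a limit of 50, and 5.03% and 8.53% by the difference alone. Within subsets they were 0.283% and 0.847% (PC1 below 0), 2.02% and 2.81% (PC1 above 0), 1.14% and 4.73% (first 23 columns, 4 against 5 members) and 0.464% and 0.636% (other 61 columns). Without the members beyond 100 on PC3 the higher share was 0.119%. Fewer members leave fewer overlaps by construction. Leaving out each member gave 0.04999% to 0.0944% higher (18 to 34 genes, the latter without Greece replicate 2) and 0.217% to 0.311% lower (78 to 112 genes, the latter without Shanxi replicate 3).

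The difference of 62 of 65 photoperiod and clock values stayed within 1 SD. The exceptions were in the first 23 columns, at 0.27 for Asa2G00681.1, -0.78 for Asa2G04763.1 and -1.53 for Asa6G01159.1, and the cause was not tested. Of the other study-named genes, Asa2G00253.1 moved to -3.21 in the first 23 columns and Asa4G02474.1 to -0.33 with a pseudocount of 0.1. Leaving out 1 member kept Asa2G04763.1 between -2.07 and -1.86, Asa6G06199.1 between -1.09 and -0.90 and Asa6G01110.1 between -1.68 and -1.55. Relative depth turned to -0.00259 below 0 on PC1, and column position to 2.37 there and to 0.805 at a limit of 30, all far from the threshold. The numbers at each end stayed within 1.5 times under the scalings, without the filter, at limits of 30 and 50 and without the accessions beyond 100 on PC3, and were kept by construction with a pseudocount of 0.1 or unit variance. Depth limits Asa6G01159.1 and Asa4G02474.1, with medians of 14 and 1 reads.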

Other observations

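Some genes followed the axis in opposite directions on the sides of PC1, in 45 cases higher at the positive end below 0 and lower above 0, and in 18 cases the reverse. The named examples had the largest differences of this kind and were chosen after their values were seen. Asa8G00178.1 had medians of 56.7 FPKM (positive end) and 231 FPKM (negative end) below 0, and of 1580 and 169 FPKM above 0, with differences of -1.90 and 3.10 on the log2 scale. Its 10 positive members above 0 ran from 314 to 2131 FPKM and those of the negative end from 63.3 to 634 FPKM. Asa5G02649.1 showed the other pattern, with medians of 31.9 and 4.70 FPKM below 0 and of 1.29 and 25.1 FPKM above 0. No difference between the sides was tested.

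Of the 36007 genes in the comparison, 308 were listed at 0 in every positive member but not in every negative one, and 28 the reverse. A further 1 gene was listed at 0 in every member of both ends and is in neither count. A value listed at 0 can also be a gene below detection. The positive end had fewer members (21 against 25), and fewer members more often share a 0. All 3 members beyond 100 on PC3 were at the negative end, and no count was made without them.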
